A study of Mus musculus with 96 samples.

Results

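Voltage-gated calcium and sodium channel genes were taken as all genes whose symbol starts with Cacn, or with Scn followed by a digit, and every peak annotated to one of them was followed through H3K4me3, H3K27me3 and Suz12 profiles of sorted hippocampal nuclei. Of the 22815 peaks, 70 met the rule, and they belonged to 31 of the 40 genes that RefSeq lists under these symbols. Calcium channel genes held 43 of these peaks in 20 genes, and sodium channel genes held 27 in 11 genes. The mice were 6 months old male C57BL/6N animals of 4 genotypes. Besides wild type (WT) mice these were Mutyh-/- and Ogg1-/- single knockouts, and the DKO that lacks both DNA glycosylases and was bred by crossing the single knockouts. Each library came from the pooled hippocampi of several animals of 1 genotype, and each genotype had 3 replicates per antibody and fraction. Nuclei had been sorted into a NeuN+ (neuronal) and a NeuN- (non-neuronal, mostly glial) fraction, so that each of the 6 tables, 1 per antibody and fraction, held 12 libraries. The labels number these replicates but do not say how they were separated, and the paper calls the ChIP-seq replicates independent. The p-values refer only to these samples. At most H3K27me3 and Suz12 peaks they rest on the spread fitted over all peaks of the table, not on the peak's own.

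Voltage-gated calcium channels are built around a pore-forming alpha1 subunit that opens on depolarisation, with auxiliary alpha2delta and beta subunits that set its traffic to the membrane and its gating. Voltage-gated sodium channels pair a pore subunit, which carries the upstroke of the action potential, with beta subunits that modulate it and act in adhesion. H3K4me3 marks active promoters, whereas H3K27me3 is laid down by Polycomb repressive complex 2, of which Suz12 is a core subunit, at silenced genes. OGG1 excises the oxidised base 8-oxoguanine and MUTYH removes adenine paired with it.

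In NeuN+ nuclei, H3K4me3 peaks were annotated to 30 of the 40 channel genes, with 36 peaks in all, 35 of them at promoters. The NeuN- table, which had 3270 peaks against 12628, held 2 such peaks, at Cacna1h and Cacnb2. H3K27me3 gave 17 peaks at 5 channel genes in NeuN+ nuclei and 14 peaks at 8 genes in NeuN- nuclei. Suz12 gave 1 peak in NeuN+ nuclei and 0 in NeuN- nuclei. The 9 genes without a peak in any table were Cacna1s and Cacng1, Scn4a (channel subunits of skeletal muscle), Cacna1f and Cacna2d4 (retina), Scn11a (sensory neurons), Scn7a (the sodium-sensing channel of glia) and Cacng5 and Cacng6. Scn10a, another channel of sensory neurons, had H3K27me3 peaks only. A gene without a peak is one to which none was called and annotated, and the tables do not show its read level.

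**Figure D1:**
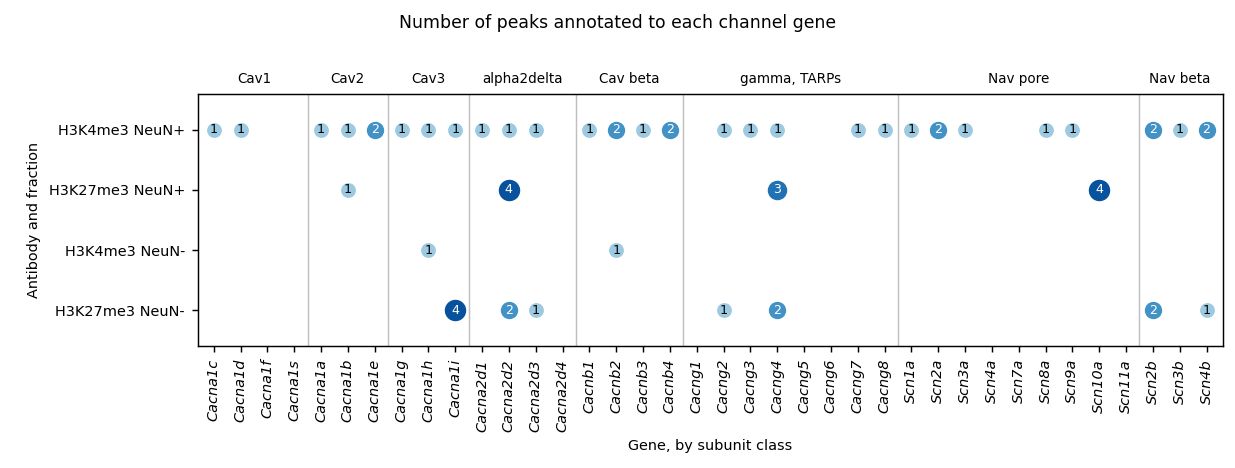
Number of peaks annotated to each of 38 channel genes (horizontal axis, by subunit class) for each histone mark and fraction (vertical axis); an empty cell is no annotated peak. H3K4me3 in NeuN+ nuclei is spread over all subunit classes, whereas H3K27me3 is at few genes, with 4 peaks each at Cacna2d2 and Scn10a in NeuN+ and at Cacna1i in NeuN- nuclei.

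Summed over all peaks, an H3K4me3 NeuN+ library held between 96023 and 548706 reads and an H3K27me3 NeuN- library between 19132 and 78250. At the channel peaks the median was 20 reads per peak and library for H3K4me3 NeuN+, 4 for H3K27me3 NeuN+, 8.5 for H3K4me3 NeuN- and 3 for H3K27me3 NeuN-. In the last of these, 31.0% of the values were 0 reads, against 0.231% in H3K4me3 NeuN+. The fractions were checked against fixed marker genes. Of 12 neuronal markers, 11 had an H3K4me3 peak in NeuN+ nuclei and 0 in NeuN- nuclei. Few non-neuronal markers had an H3K4me3 peak in NeuN- nuclei, namely 1 of 8 for astrocytes, 1 of 10 for the oligodendrocyte lineage and 0 of 8 for microglia. Libraries of different tables were normalised apart, and levels are therefore not compared between fractions or antibodies. In sorted bulk nuclei, a mark in fewer cells and less of the mark per cell cannot be told apart.

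The channel promoters differed in CpG content, and sequences upstream of 6 transcription start sites are shown for that range and for their motifs. RefSeq promoter windows (GRCm38.p6, 250 bases before to 50 after the start) were matched for 30 of the 40 genes, 41 windows in all, and among the others windows for Cacna1a, Cacna1g, Cacna1h, Cacna2d4, Cacng1, Cacng4, Scn3a and Scn3b were not matched. Capitals mark CpG dinucleotides, and the bases before the start are printed 5′ to 3′ on the strand of the gene. Cacna1b (N-type pore subunit, chr2:24763153-24763402, minus strand) had the H3K4me3 peak with the highest WT mean, 299 bp after this RefSeq start. Scn8a (a pore subunit of the axon initial segment, chr15:100870395-100870644, plus strand) and Cacna1i (a T-type pore subunit, chr15:80286988-80287237, plus strand) had their peaks 406 and 306 bp after it. Scn2a (chr2:65620519-65620768, plus strand) had a peak 167 bp after a start with few CpGs, and Cacnb4 (a beta subunit, chr2:52558612-52558861, minus strand) had 1 of its peaks 649 bp after this start. Scn11a (chr9:119825457-119825706, minus strand) had no peak.
Cacna1b: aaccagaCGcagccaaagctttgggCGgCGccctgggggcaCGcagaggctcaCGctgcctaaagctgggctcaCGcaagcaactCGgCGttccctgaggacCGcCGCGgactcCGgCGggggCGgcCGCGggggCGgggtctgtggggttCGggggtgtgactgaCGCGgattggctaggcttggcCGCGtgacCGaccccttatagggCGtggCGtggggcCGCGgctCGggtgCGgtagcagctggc
Scn8a: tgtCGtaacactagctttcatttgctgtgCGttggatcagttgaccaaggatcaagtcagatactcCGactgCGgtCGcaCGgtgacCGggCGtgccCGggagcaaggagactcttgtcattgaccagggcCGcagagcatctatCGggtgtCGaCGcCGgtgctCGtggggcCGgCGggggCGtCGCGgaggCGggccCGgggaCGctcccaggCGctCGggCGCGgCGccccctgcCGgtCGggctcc
Cacna1i: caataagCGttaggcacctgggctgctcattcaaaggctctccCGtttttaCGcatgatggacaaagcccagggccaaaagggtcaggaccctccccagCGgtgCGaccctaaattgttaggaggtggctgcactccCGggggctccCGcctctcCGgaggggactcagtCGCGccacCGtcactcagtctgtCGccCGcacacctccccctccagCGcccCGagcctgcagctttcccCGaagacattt
Cacnb4: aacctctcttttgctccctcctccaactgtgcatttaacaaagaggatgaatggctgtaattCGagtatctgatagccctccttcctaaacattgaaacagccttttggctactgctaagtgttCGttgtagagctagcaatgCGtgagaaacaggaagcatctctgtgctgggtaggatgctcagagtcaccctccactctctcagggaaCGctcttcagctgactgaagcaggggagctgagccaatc
Scn2a: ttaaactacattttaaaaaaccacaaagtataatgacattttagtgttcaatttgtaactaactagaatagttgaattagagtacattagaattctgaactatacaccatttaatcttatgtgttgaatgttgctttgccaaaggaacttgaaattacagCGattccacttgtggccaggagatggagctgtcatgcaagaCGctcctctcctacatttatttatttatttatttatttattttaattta
Scn11a: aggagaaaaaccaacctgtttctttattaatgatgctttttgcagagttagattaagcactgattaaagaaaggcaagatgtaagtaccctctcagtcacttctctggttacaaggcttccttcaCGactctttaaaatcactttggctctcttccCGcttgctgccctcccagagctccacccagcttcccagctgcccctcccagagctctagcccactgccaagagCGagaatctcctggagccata
These 250-base stretches held 29, 30 and 16 CpGs at Cacna1b, Scn8a and Cacna1i, and 4, 2 and 3 at Cacnb4, Scn2a and Scn11a. The other 2 Cacnb4 windows, at the upstream peak of the gene, held 27 and 40 CpGs per 300 bases.

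Across the 41 windows, the 23 whose start lay within 1000 bp of an H3K4me3 NeuN+ peak of the gene had a median of 27 CpGs per 300 bases, with a range of 2 to 63. The other 18 windows had a median of 5 CpGs, with a range of 2 to 17, and all 32851 RefSeq windows had a median of 7. The GC box GGGCGG, searched on both strands, was in 11 of the 23 windows (47.8%) and in 35.7% of all windows, and in the printed Cacna1b sequence it occurred on the strand shown at positions 23, 121 and 133 from the 5′ end. The TATA box TATAAA was in 1 of the 23 (4.35%) and in 13.6% of all windows, and CCAAT was in 4 (17.4%) and in 37.4% of all. The letters TTCAGCACC, a part of the element bound by the neuronal gene repressor REST, were in 0 of the 41 windows and in 0.371% of all windows. Of the 36 H3K4me3 peaks in NeuN+ nuclei, 9 had fewer than 10 CpGs, among them both Scn2a peaks (6 and 3), the Scn3a peak (3), the Scn1a peak (5), 1 peak of Cacna1e (6) and the peaks of Cacng3 (6) and Cacng8 (4).

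H3K4me3 levels in NeuN+ nuclei are given as normalised reads per peak, and all peaks had the same width. The 36 channel peaks had a median WT mean of 20.6 against 23.4 over all 12628 peaks, and their median rank was the 39.5th percentile. They had a median of 34 CpGs per peak, against 35 for all peaks, and 0 of them were repeat peaks. Of the 35 promoter peaks, 15 covered a start site, 19 lay after it and 1 lay before it. The spread between replicates was large at this depth: the SD of the 3 WT libraries had a median of 34.9% of the mean.

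Among the pore-forming calcium channel subunits, the P/Q-, N- and R-type genes all carried the mark. Cacna1b, the N-type channel of presynaptic terminals, had 50.2, 23.4 and 40.9 in the WT libraries (38.2 ± 13.6, SD, n = 3). Cacna1a, the P/Q-type channel, stood at 26.2 ± 9.65, and the 2 peaks of the R-type gene Cacna1e at 21.9 ± 7.48 and 21.1 ± 9.53. The 3 T-type genes, which open near the resting potential, lay close to each other, with Cacna1i at 29.9 ± 3.12, Cacna1h at 28.1 ± 7.06 and Cacna1g at 25.9 ± 7.39. Of the 4 L-type genes, Cacna1c and Cacna1d, the forms of brain and heart, had a peak, and Cacna1d was among the lowest channel peaks with 6.43, 8.78 and 9.69 in WT (8.3 ± 1.68).

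All 4 beta subunit genes had H3K4me3 peaks, 6 in all. Cacnb1 was the highest of them in WT, with 32.2, 42.9 and 32.3 (35.8 ± 6.18), and the main Cacnb2 peak had the highest mean of all channel peaks over the 12 libraries, 34.0. It held 36.0, 19.5 and 33.4 in WT, 28.3, 26.6 and 37.7 in Mutyh-/-, 39.3, 22.6 and 53.8 in Ogg1-/-, and 24.8, 49.9 and 36.4 in DKO, with overlapping groups and log2 fold changes of 0.09, 0.33 and 0.30 (SE 0.40 each). A second Cacnb2 peak and the downstream Cacnb4 peak, each at another start of the gene, were lower, at 9.07 ± 3.66 and 10.6 ± 8.74. Of the alpha2delta genes, Cacna2d1, which encodes the receptor of gabapentin, stood at 33.9 ± 18.1, Cacna2d3 at 24.3 ± 10.3 and Cacna2d2 at 17.3 ± 9.62. Among the 8 genes of the gamma class, 5 had a peak (Cacng2, Cacng3, Cacng4, Cacng7 and Cacng8), all of them genes of AMPA receptor auxiliary subunits (TARPs), with WT means from 15.5 to 24.5.

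Of the 10 sodium channel pore genes, 6 had H3K4me3 peaks in NeuN+ nuclei. Scn8a was the highest, at 27.2 ± 6.05. Scn9a stood at 21.5 ± 6.95, the first peak of Scn2a at 20.0 ± 6.11 and Scn1a, the channel of inhibitory interneurons, at 16.2 ± 1.56. Scn3a, the pore subunit used mostly before birth, had the lowest level of all 36 peaks, with 6.43, 9.76 and 5.38 in WT (7.19 ± 2.28). From Scn8a to Scn1a, neighbours in this order differed by less than the SD of the higher of them, whereas the WT libraries of Scn1a (15.1 to 18.0) and Scn3a did not overlap. The second Scn2a peak lay between these, at 10.3 ± 1.07. All 4 beta subunit genes of sodium channels were marked, among them Scn3b at 27 ± 3.68, the peaks of Scn2b at 16 ± 5.92 and 20.1 ± 11.7, and the promoter peak of Scn4b at 8.81 ± 11.3. The only H3K4me3 peak outside a promoter lay in intron 1 of Scn4b (11.4 ± 4.32).

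**Figure D2:**
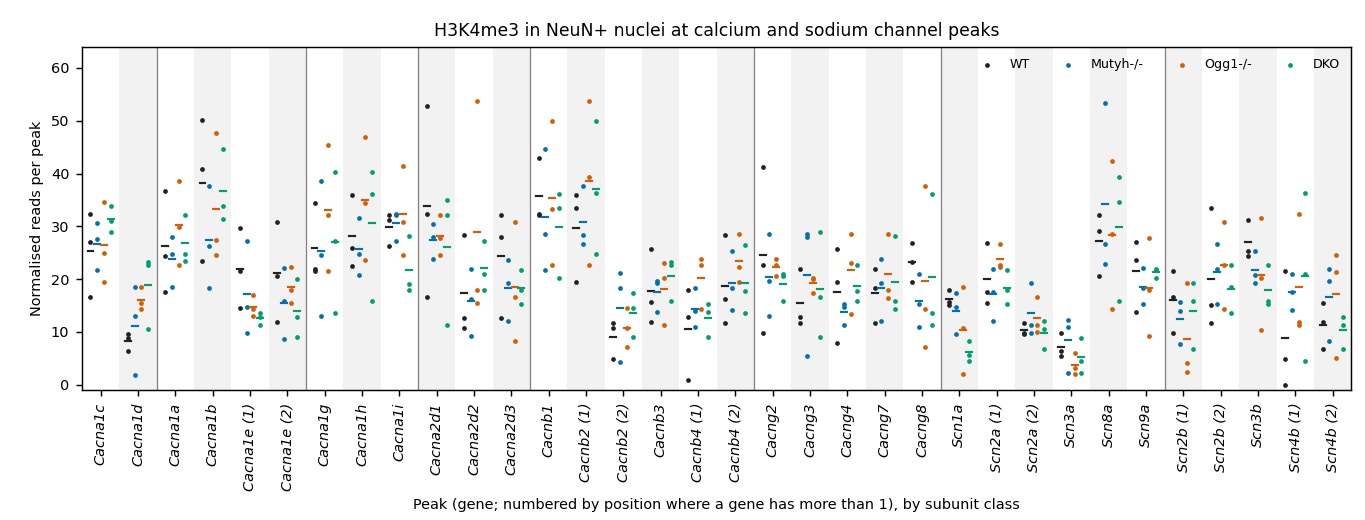
Normalised H3K4me3 reads per peak (vertical axis) in NeuN+ nuclei at 34 of the 36 channel peaks, grouped by subunit class; points are libraries, 3 per genotype, and short lines are genotype means. WT means run from 7.19 at Scn3a to 38.2 at Cacna1b, and the libraries of the 4 genotypes overlap at most peaks.

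The knockouts were compared with WT at these 36 peaks to ask whether loss of either glycosylase changed H3K4me3 at channel genes. A differentially enriched region (DER) was a peak with p under 0.05 before adjustment whose log2 fold change was over 0.5 in either direction. In the limma fit there was 1 DER in Mutyh-/- and 2 in Ogg1-/-, all higher than WT, and 0 in DKO, where 0 of 36 also had an unadjusted p under 0.05. Over all 12628 peaks the DERs made up 0.863%, 0.934% and 1.2%, and those higher than WT 0.348% in Mutyh-/- and 0.729% in Ogg1-/-. None of the 210 comparisons of channel peaks with WT, over all tables, had an adjusted p under 0.05 in limma, and 7 had an unadjusted p under 0.05. The median log2 fold change of the channel peaks was -0.08 in Mutyh-/-, 0.16 in Ogg1-/- and -0.01 in DKO, beside -0.07, 0.08 and -0.02 over all peaks. The median SE of a channel peak was 0.49 on the log2 scale.

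The promoter peak of Scn4b, a beta subunit gene linked to resurgent sodium current, gave 2 of the 3 DERs. It had 0, 4.88 and 21.5 normalised reads in WT, 14.2, 17.5 and 21 in Mutyh-/-, 11.9, 11.3 and 32.3 in Ogg1-/-, and 4.51, 20.9 and 36.4 in DKO. WT replicate 3 lay above all Mutyh-/- libraries and the other 2 WT libraries below them, and the groups overlapped in each comparison. The log2 fold change was 1.85 (SE 0.84, unadjusted p of 0.0384, adjusted p = 1 in limma) in Mutyh-/- and 1.77 (SE 0.84, unadjusted p of 0.0462, adjusted p = 1 in limma) in Ogg1-/-. Both values moved with single libraries. Without WT replicate 1, with 0 reads, the log2 fold changes were 0.672 and 0.597 (unadjusted p of 0.332 and 0.388 in limma), and without WT replicate 3 they were 2.919 and 2.844 (0.000641 and 0.000857). Both calls were also lost without WT replicate 2 (unadjusted p of 0.0819 and 0.0932), that in Mutyh-/- without any 1 of the Mutyh-/- libraries (0.0608 to 0.0926) and that in Ogg1-/- without Ogg1-/- replicate 2 or 3 (0.0654 and 0.188). The second DER of Ogg1-/- was the downstream Cacnb4 peak, with 18.0, 0.976 and 12.9 in WT and 22.6, 14.4 and 23.8 in Ogg1-/- (log2 fold change 1.37, SE 0.65, unadjusted p of 0.0395, adjusted p = 1 in limma). Without WT replicate 2 the log2 fold change was 0.355 (unadjusted p of 0.547 in limma), and without WT replicate 1 it was 1.988 (0.00833). The call was also lost without Ogg1-/- replicate 1 or 3, at log2 fold changes of 1.278 and 1.241 (unadjusted p of 0.0984 and 0.105). The other Cacnb4 peak gave 0.38 (SE 0.48) in Ogg1-/-.

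At 5 of the H3K4me3 comparisons all 3 knockout libraries lay on one side of all 3 WT libraries, 1 in Ogg1-/- and 4 in DKO, out of 36 each, beside 3.68% and 5.02% of all peaks. In Mutyh-/- there were 0 of 36, beside 5.77% of all. None of the 5 was a DER. Scn1a had 18.0, 15.6 and 15.1 in WT and 4.51, 5.63 and 8.34 in DKO (log2 fold change -1.30, SE 0.71, unadjusted p of 0.0739, adjusted p = 1 in limma). These were 14, 16 and 14 reads in WT and 2, 7 and 11 in DKO. DKO replicate 1 was the shallowest library of H3K4me3 NeuN+ (96023 reads in peaks). Cacna1d had 14.3, 18.5 and 15.4 in Ogg1-/- and 22.6, 23.3 and 10.6 in DKO, above its WT values, with log2 fold changes of 0.88 (SE 0.66) and 1.03 (SE 0.66). In DKO the first Cacna1e peak and the Scn3b peak lay below WT, with log2 fold changes of -0.71 (SE 0.52) and -0.58 (SE 0.47). With TMM factors computed from the recovered reads, Scn1a became a DER in DKO and the Scn2b peak before its start became one in Ogg1-/-, in place of Scn4b, both lower than WT. The calls of the 36 peaks were then 2 higher and 2 lower, 1 in Mutyh-/-, 2 in Ogg1-/- and 1 in DKO, beside 3.67%, 3.79% and 5.26% of all peaks with these factors.

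H3K27me3 in NeuN+ nuclei was found, among others, at Cacna1b (1 peak), Cacna2d2 (4), Cacng4 (3) and Scn10a (4). None of the 17 peaks lay at a promoter, against 26.5% of all 4132 peaks, with 12 in introns and 5 between genes. They were CpG-poor, with a median of 5 CpGs per peak, equal to that of all peaks of the table. Their median WT mean was 5.37, against 5.2 over all peaks. No peak of the 17 lay within 2000 bp of an H3K4me3 or Suz12 peak of NeuN+ nuclei, whereas 10.4% and 9.7% of all H3K27me3 peaks did. Cacna1b, Cacna2d2 and Cacng4 were thus annotated with both histone marks in NeuN+ nuclei, at separate places. The annotation names the closest gene, and it does not always name the gene that holds the peak. For instance, the Cacna1b peak lay beyond the end of Cacna1b, in intron 1 of the long noncoding RNA Gm13417.

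Cacna2d2, an alpha2delta subunit gene, held the channel peak with the highest H3K27me3 level. That peak, in intron 3, is shown by its middle 300 bases (chr9:107467525-107467824, plus strand of GRCm38.p6), with CpGs in capitals, for contrast with the promoters above.
Cacna2d2: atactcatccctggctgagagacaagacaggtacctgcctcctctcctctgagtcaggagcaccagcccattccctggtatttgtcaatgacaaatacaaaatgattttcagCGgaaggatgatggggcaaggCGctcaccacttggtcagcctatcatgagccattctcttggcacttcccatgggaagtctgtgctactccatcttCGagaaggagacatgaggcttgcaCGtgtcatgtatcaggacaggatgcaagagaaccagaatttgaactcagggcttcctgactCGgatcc
The stretch held 5 CpGs. Its values were 21.9, 2.21 and 12.1 in WT (12.1 ± 9.85), 2.03, 3.32 and 6.99 in Mutyh-/-, 5.95, 11.5 and 7.19 in Ogg1-/-, and 7.65, 4.85 and 8.02 in DKO. WT replicates alone thus spanned the values of the 9 knockout libraries, except 2.03 in Mutyh-/-. The log2 fold changes were -1.07, -0.15 and -0.36 (SE 0.85 each). The other 3 Cacna2d2 peaks had WT means of 7.63 ± 2.84, 10.6 ± 9.99 and 2.93 ± 2.76, with log2 fold changes between -1.08 and 1.03 and no DER. At the promoter of this gene, H3K4me3 stood at 15.8 in Mutyh-/-, 29.0 in Ogg1-/- and 22.1 in DKO against 17.3 in WT, with log2 fold changes between -0.07 and 0.61 (SE 0.51).

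In the genotype comparison of NeuN+ H3K27me3, 1 channel peak was a DER in each knockout, the same one each time and higher than WT, beside 3.8% of all peaks in Mutyh-/-, 3.73% in Ogg1-/- and 3.1% in DKO. The DERs higher than WT were 1.02%, 1.52% and 1.67% of all peaks. This was a peak in intron 8 of Scn10a (chromosome 9, 119667365 to 119667765), with 4 CpGs and no read in any WT library. Reads were 4, 3 and 15 in Mutyh-/-, 7, 2 and 3 in Ogg1-/-, and 4, 5 and 7 in DKO. Every knockout library had reads there, and no WT library did. The study kept a region that was called in 2 or more of the 3 replicates. A peak with no read in WT could therefore enter the table through the knockouts alone, and its higher level in them is a description with no support from the tests. Set against 3 reads over the WT group, the ratio of means was 7.3 in Mutyh-/-, 3.95 in Ogg1-/- and 4.84 in DKO. These ratios leave out the spread of the knockout libraries, and in Mutyh-/- replicate 3 held 15 of the 22 reads. The unadjusted p in limma, by which the DER rule called the peak, was 0.00723, 0.0346 and 0.0144, with adjusted p of 0.999, 0.98 and 0.998. The call in Mutyh-/- was lost without Mutyh-/- replicate 3 (unadjusted p of 0.0595), and that in Ogg1-/- without any 1 of the WT libraries (0.0563 to 0.0583) or without Ogg1-/- replicate 1 (0.122). The 3 comparisons share the same WT libraries. The other 3 Scn10a peaks had WT means of 5.94, 4.4 and 5.37, and none was a DER.

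Apart from Scn10a, 4 comparisons of NeuN+ H3K27me3 had groups that did not overlap, so that these made up 3, 1 and 3 of 17 with the Scn10a peak, beside 9.15%, 9.17% and 9.08% of all peaks. The Cacng4 peak upstream of the gene (-3046 bp from its start) had 6.57, 2.21 and 6.89 in WT and 0, 1.11 and 0.999 in Mutyh-/- (log2 fold change -1.84, SE 1.04), in a comparison where the median of all peaks was -0.21. The other Cacng4 peaks had WT means of 6.34 ± 7.52 in intron 1 and 3.03 ± 3.34 farther upstream, with log2 fold changes between -0.91 and 1.2. The Cacna1b peak had 3.29, 2.21 and 4.31 in WT, against 7.1, 6.64 and 5.0 in Mutyh-/- and 6.56, 8.72 and 9.63 in DKO, while Ogg1-/- had 2.97, 2.09 and 1.03. Its log2 fold changes were 0.78 and 1.14 (SE 0.96) in Mutyh-/- and DKO. The median log2 fold change of the 17 peaks was -0.33 in Mutyh-/-, -0.01 in Ogg1-/- and 0.24 in DKO, with a median SE of 0.98. Over all peaks of this table the medians were -0.21, -0.11 and -0.01 in the same order.

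**Figure D3:**
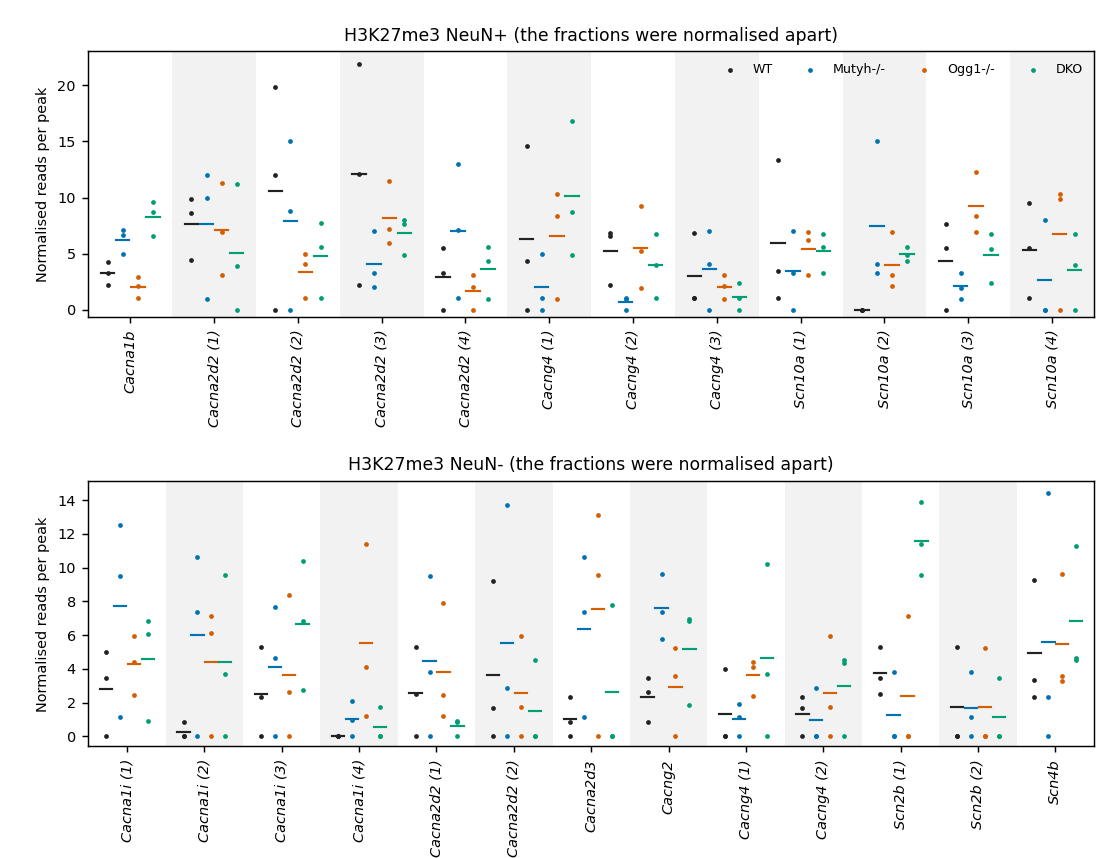
Normalised H3K27me3 reads per peak (vertical axis) at 12 of the 17 channel peaks of NeuN+ nuclei (top) and 13 of the 14 of NeuN- nuclei (bottom); points are libraries, 3 per genotype, and short lines are genotype means. Most peaks hold few reads and the genotypes overlap; the second Scn10a peak and the fourth Cacna1i peak have no read in WT.

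In NeuN- nuclei H3K27me3 was annotated, among others, to Cacna1i (4 peaks), Cacna2d2 (2), Cacna2d3 (1), Cacng2 (1), Cacng4 (2), Scn2b (2) and Scn4b (1). All 8 genes carried H3K4me3 in NeuN+ nuclei, and 3 of them, Cacna2d2 and Cacng4 included, also had H3K27me3 there. The levels were low, with a median WT mean of 2.15 against 3.31 over all 1698 peaks, and the median SD of the WT libraries was 105% of the mean. Of the 14 peaks, 4 were at promoters (28.6%, against 47.7% of all), namely those of Cacna2d3, Cacna1i (2 starts) and Scn2b. The Scn2b peak shared 71 bases with a NeuN+ H3K4me3 peak before the same start. The NeuN- H3K27me3 peak of Cacna1i, 80286596 to 80286996, reached only the first few bases of the upstream sequence printed for that gene. That sequence starts at 80286988.

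The highest mean over the 12 libraries was that of the Scn4b peak in intron 1, 5.71. It had 9.27, 3.32 and 2.31 in WT, 14.4, 0 and 2.31 in Mutyh-/-, 9.64, 3.27 and 3.58 in Ogg1-/-, and 11.3, 4.62 and 4.54 in DKO. The groups overlapped, and the log2 fold changes were -0.51, 0.17 and 0.46 (SE 1.17 each).

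Among these 14 peaks there was 1 DER, in Ogg1-/-, and there were 0 in Mutyh-/- and DKO, which also had 0 at an unadjusted p under 0.05 in limma. The shares over all peaks were 4.24%, 1.88% and 2.12%, and the DERs higher in Ogg1-/- were 3.89%. The DER lay past the end of Cacna1i (chromosome 15, 80408449 to 80408849). It had no read in WT and 13, 5 and 1 reads in Ogg1-/- (unadjusted p of 0.0167, adjusted p = 0.964 in limma). Set against 3 reads over the WT group, the ratio of means was 5.04, which leaves out the spread of the Ogg1-/- libraries. Mutyh-/- had 1, 2 and 0 reads and DKO 2, 0 and 0. Like the Scn10a peak, one without WT reads could enter the table through the knockouts alone, here with most reads in Ogg1-/-, so its call is a description too. Without Ogg1-/- replicate 1 the unadjusted p was 0.0873. The groups did not overlap at 1 of the 14 peaks in each knockout, beside 6.6%, 9.78% and 6.77% of all peaks in Mutyh-/-, Ogg1-/- and DKO. Besides the Cacna1i peak in Ogg1-/-, these were an intron 1 peak of Cacng2, a gene of an AMPA receptor auxiliary subunit, with 2.65, 0.829 and 3.46 in WT and 9.61, 7.39 and 5.78 in Mutyh-/- (log2 fold change 1.45, SE 1.17), and the Scn2b promoter peak in DKO. The median log2 fold change of the 14 peaks was 0.38, 0.43 and 0.62 in Mutyh-/-, Ogg1-/- and DKO, beside 0.29, 0.58 and 0.41 over all peaks of this table.

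Whether the double knockout departed from the sum of the single ones was asked with the DKO effect less both single-knockout effects. No channel peak passed an adjusted p under 0.05 in limma, edgeR or DESeq2 in any table, and 2 had an unadjusted p under 0.05, both in NeuN- H3K27me3 (2 of 14, beside 2.41% of all peaks of that table). In the other tables no channel peak had one, beside 0.871% (H3K4me3 NeuN+), 3.82% (H3K27me3 NeuN+) and 2.94% (H3K4me3 NeuN-) of all peaks. The Scn2b promoter peak had 5.29, 2.49 and 3.46 in WT, 3.84, 0 and 0 in Mutyh-/-, 0, 0 and 7.15 in Ogg1-/- and 9.54, 13.9 and 11.4 in DKO. The DKO libraries lay above all 9 others, with a contrast of 4.08 (SE 1.63, unadjusted p of 0.0123, adjusted p = 1 in limma). For DKO against WT alone the log2 fold change was 1.44 (SE 1.15). The other was the distal Cacna1i peak without WT reads, at -2.76 (SE 1.40, unadjusted p of 0.049, adjusted p = 1 in limma). As that peak could enter the table through the knockouts alone, its contrast is a description too.

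H3K4me3 in NeuN- nuclei was limited to Cacna1h and Cacnb2. Cacnb2 had 22.1, 5.52 and 2.36 in WT, 12.4, 16.4 and 1.63 in Mutyh-/-, 7.92, 6.38 and 0 in Ogg1-/-, and 13.9, 5.0 and 12.3 in DKO. Cacna1h had 6.91, 7.88 and 10.6 in WT, 11.4, 9.51 and 0 in Mutyh-/-, 8.91, 16 and 5.68 in Ogg1-/-, and 12.1, 3.57 and 1.12 in DKO. The groups overlapped throughout. There was no DER (adjusted p of at least 0.999 in limma), beside 2.97%, 3.24% and 2.39% of all 3270 peaks, and 0.0306% of all peaks had an adjusted p under 0.05 in each knockout. Groups that did not overlap made up 9.24%, 8.29% and 5.02% of all peaks. The Cacnb2 peak shared 289 bases with the NeuN+ peak of the gene, and the Cacna1h peaks of the fractions were 115 bp apart.

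The knockout effect was compared between fractions at Cacnb2, whose H3K4me3 peaks overlapped. The effect in NeuN+ minus that in NeuN- was 0.00 in Mutyh-/-, 1.31 in Ogg1-/- and -0.11 in DKO (SE 1.06 each). In limma, 0 of these 3 differences had an unadjusted p under 0.05, and every adjusted p was at least 0.999. Among all 3000 shared H3K4me3 peaks 2.27%, 1.8% and 1.77% had an unadjusted p under 0.05.

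**Figure D4:**
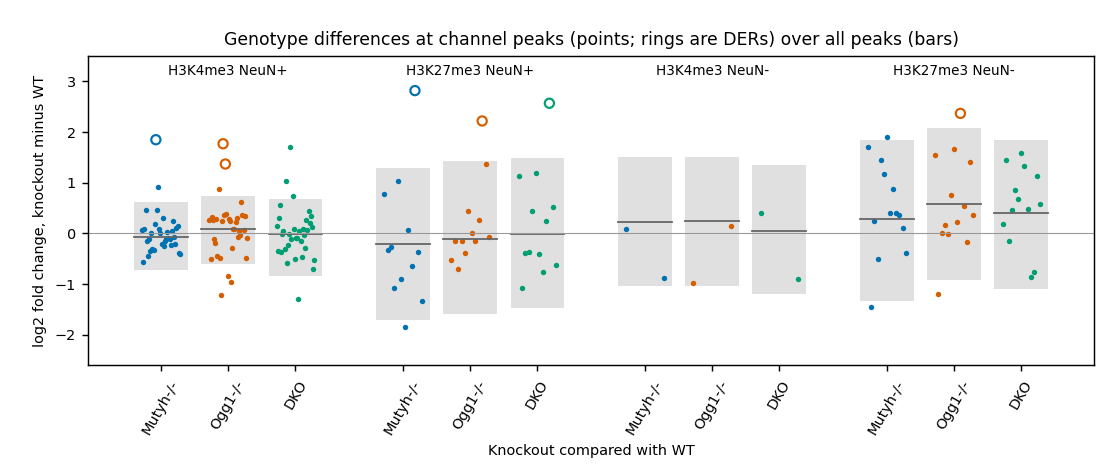
log2 fold change of each knockout against WT (vertical axis) at channel peaks, by histone mark and fraction; points are the channel peaks reported here, rings are the 7 DERs, grey bars span the 5th to 95th percentile of all peaks of the table and dark lines their median. Most channel peaks lie inside the bars, and the rings are the Scn4b and Cacnb4 H3K4me3 peaks, the Scn10a H3K27me3 peak in NeuN+ and a Cacna1i H3K27me3 peak in NeuN- nuclei.

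Over the 5 tables with channel peaks, 7 of 210 comparisons with WT were DERs (3.33%), at 4 peaks and all higher in the knockout, beside 1.96% of the 67509 comparisons of all peaks. Of the 7, 4 were at the 2 H3K27me3 peaks without a WT read. Other settings turned this order around. With TMM factors 3.81% of the channel comparisons were called, 6 higher and 2 lower, beside 4.37% of all, with cyclic loess 3.81% beside 4.73%, with edgeR 2.86% beside 3.66%, and with DESeq2 2.86% beside 3.58%. With the other 4 settings that kept every library, the channel share stayed the higher one. The share of peaks whose groups did not overlap was 7.14% at channel genes and 6.31% over all. Channel peaks took 0.254% ± 0.00959 (SD over 12 libraries) of the reads in peaks for H3K4me3 NeuN+, and the genotype means lay between 0.251% and 0.257%. In the other histone tables the share varied more between libraries, at 0.268% ± 0.0837 for H3K27me3 NeuN+, 0.0215% ± 0.0136 for H3K4me3 NeuN- and 0.147% ± 0.0991 for H3K27me3 NeuN-. Genotype means lay between 0.25% and 0.285% in the first of these and between 0.0158% and 0.0295% in the second. For H3K27me3 NeuN-, WT had 0.098% ± 0.0537, against 0.165% ± 0.116 in Mutyh-/-, 0.146% ± 0.106 in Ogg1-/- and 0.179% ± 0.144 in DKO (SD, n = 3 each), and the libraries of each knockout overlapped those of WT. With repeat peaks left out, a choice made after seeing the data, the WT libraries held 0.397%, 0.19% and 0.325%. Mutyh-/- then held 0.448%, 0.58% and 0.222%, Ogg1-/- 0.41%, 0.147% and 0.36%, and DKO 0.418%, 0.286% and 0.398%. Each knockout again overlapped WT. A fixed list of 32 partner genes, among them ankyrins, neurofascin and the kinases and calcium sensors that regulate these channels, had 38 H3K4me3 peaks at 26 genes in NeuN+ nuclei. Of these, 1 was a DER lower than WT in Mutyh-/- (beside 0.863% of all peaks) and 0 were DERs in Ogg1-/- and DKO. Its 7 NeuN- H3K27me3 peaks held 1 DER, higher in Ogg1-/- (beside 4.24% of all peaks), and both calls were at Nfasc, which anchors sodium channels at the axon initial segment. Its 2 NeuN+ H3K27me3 peaks and 8 NeuN- H3K4me3 peaks held 0. No partner peak had an adjusted p under 0.05 in limma.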

How the data were processed

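ChIP-seq libraries of hippocampal nuclei (72 of the 96 samples of the series; the 24 input libraries were not used here) were analysed from 6 deposited tables. The authors aligned reads with Bowtie2 2.3.5.1 to GRCm38 (mm10), called regions with epic2 (the submitters' processing notes name SICER), counted reads in consensus peaks (regions called in 2 or more of 3 replicates) with DiffBind 3.10.1 and annotated the closest gene with ChIPseeker 1.36. How duplicates, blacklisted regions and input were handled is not given in the sources used here. The signal values the authors deposited are reads per peak after division by a library factor. All were whole multiples of the library's smallest value (relative tolerance 1e-06), which gave back the reads. Of the peaks' transcripts found in GENCODE M21, 99.8% had the same start and end there.

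limma 3.58.1 (limma-trend, robust empirical Bayes) was fitted to log2(value + 1) over all peaks of a table, with 12 libraries and genotype as the only term, and p was adjusted by Benjamini-Hochberg within a contrast over all peaks of the table. Fold changes on this scale understate changes at low peaks. For most peaks of the H3K27me3 and Suz12 tables the prior weight was infinite, so that a peak's own spread did not set its p. Differences between fractions were tested on pairs of overlapping peaks, in a joint fit of both fractions (24 libraries). Alternatives were TMM factors, cyclic loess, a pseudocount of 5, leaving out the lowest 25% of peaks, standard empirical Bayes, a replicate block, leaving out each replicate, and edgeR 4.0.16 and DESeq2 1.42.0 on the recovered reads. The limma fits were also run on simulated reads with known changes, and the share of changes recovered is not given here. Same-numbered WT and knockout libraries deviated together (all 3 correlations over 0.1) in 1 of 18 contrasts, Mutyh-/- in Suz12 NeuN+ (0.388, 0.186 and 0.119), so the label numbers were read as pairs there. The block changed no call of a channel peak in that contrast.

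The peaks named are, per table, the one with the highest mean, the one with the smallest F-test p over genotypes and every DER, and the peaks of genes with H3K4me3 and H3K27me3 or Suz12 in the same fraction. Others named, such as those with groups that do not overlap, were chosen after their values were seen. Values of 2 of the genes are not reported here, although counts over all channel peaks include them. Channel genes and gene lists were chosen with earlier results of these data known.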

Additional observations from a re-analysis of the deposited data

How the results depend on the processing

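Counts of DERs at channel peaks were small, and 37 of 210 recomputed counts moved by more than 1.5 times. For H3K4me3 in NeuN+ nuclei, the 1 DER of Mutyh-/- and the 2 of Ogg1-/- fell to 0 with edgeR and with DESeq2. The shares of all peaks called in Mutyh-/- and Ogg1-/- were then 4.01% and 3.97% with edgeR, and 2.99% and 2.99% with DESeq2. With a pseudocount of 5 the 2 of Ogg1-/- fell to 1, beside 1.11% of all peaks. In DKO, with 0 DERs, 1 appeared with TMM factors, cyclic loess, DESeq2, standard empirical Bayes and the replicate block, and 2 with a pseudocount of 5 and with edgeR. The share of all peaks called in DKO, 1.2% as reported, was 5.26%, 5.47%, 2.81%, 1.46%, 1.62%, 1.46% and 3.88% under these settings in that order. Without the lowest 25% of peaks 25 of the 36 channel peaks were tested, and the called Scn4b and Cacnb4 peaks were not among them. The counts were then 0, beside 0.75%, 0.718% and 1.15% of all tested peaks in Mutyh-/-, Ogg1-/- and DKO. Scn1a was lower than WT under TMM, cyclic loess, the pseudocount of 5, edgeR and DESeq2, while Scn4b was higher under the pseudocount of 5, edgeR, standard empirical Bayes and the block. Leaving out 1 library gave 0 to 1 DERs in Mutyh-/-, 0 to 2 in Ogg1-/- and 0 to 1 in DKO. For H3K27me3 in NeuN+ nuclei, DESeq2 gave 2 DERs in Mutyh-/- (a Cacng4 peak was added), beside 4.77% of all peaks. The pseudocount of 5 gave 0 in Ogg1-/-, beside 3.63% of all. Leaving out 1 library gave 1 to 2 in Mutyh-/- and 0 to 1 in Ogg1-/-. For H3K27me3 in NeuN- nuclei, leaving out the lowest 25% of peaks removed the called Cacna1i peak. It gave 0 in Ogg1-/-, beside 3.61% of all tested peaks, and leaving out 1 library gave 0 to 1 in Mutyh-/- and 0 to 3 in Ogg1-/-. With cyclic loess the 1 DER of Ogg1-/- was a Scn2b peak that was lower, in place of Cacna1i, beside 5.01% of all peaks. The cause was not tested.

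The numbers did not pair the other 17 contrasts, and the replicate block moved no other member count than the 1 named for DKO. The adjusted counts of the non-additive contrast and of the differences between fractions stayed at 0 in every alternative run. The median percentile of the channel peaks in WT, 39.5 for H3K4me3 NeuN+, ranged from 29.38 to 44.53 without 1 WT library, from 40.89 to 65.43 for H3K4me3 NeuN- and from 32.05 to 39.84 for H3K27me3 NeuN-, and fell from 32.92 to 24.63 in the last without the lowest 25% of peaks. An alternative chosen after seeing the data, leaving repeat peaks out of the total, raised the share of reads at channel peaks from 0.0215% to 0.0447% in H3K4me3 NeuN- and from 0.147% to 0.348% in H3K27me3 NeuN-.

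Depth limits the H3K27me3 values, with medians of 4 (NeuN+) and 3 (NeuN-) reads per channel peak and library and median SEs of 0.98 and 1.13 on the log2 scale.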
